A study of Mus musculus with 4 samples.

Results

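Selenoproteins are proteins that carry selenocysteine, an amino acid in which selenium takes the place of the sulfur of cysteine. The expression of 10 selenoprotein genes was described in hearts that lack PIMT and in control hearts. The genes were chosen by name and not by their values. Their products are glutathione peroxidases (*Gpx1*, *Gpx3*, *Gpx4*), thioredoxin reductases (*Txnrd1*, *Txnrd2*), the selenium carrier of plasma (*Sepp1*), the small proteins SELENOW, SELENOK and SELENOT (*Sepw1*, *Selk*, *Selt*), and an enzyme that makes the selenium donor (*Sephs2*). Of the 23337 gene symbols in the files, 9 of the 10 were present under these names. The symbol *Selt* was not found. RefSeq gives 2810407C02Rik as a synonym of this gene, and that symbol is in the files, so its values are given here as those of *Selt*.

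There were 4 RNA-seq libraries of C57BL6/J mouse heart, each made from the pooled RNA of 5 hearts of both sexes. The controls were PIMTfl/fl mice at 2 and at 6 months of age, whose PIMT gene has exons 3 and 4 between loxP sites. The csPIMT-/- mice of the same ages are PIMTfl/fl mice that in addition carry Cre recombinase under the α-myosin heavy chain promoter, which deletes these exons in cardiomyocytes from late gestation and leaves the gene intact in the other cells of the heart. Each group was 1 pooled library, so no difference between groups at 1 age has a replicate error and none was tested. The files hold 1 normalized count per gene, which is the reads of that gene divided by a size factor of the library. Since these values step in units of 1 read, the reads could be recovered, between 29823073 and 40705783 per library. Any member had at least 481 reads in any library. The 95% counting interval of a ratio (exact, Clopper-Pearson) comes from these reads and covers counting error only, not the variation between mice or pools.

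In a selenoprotein mRNA a UGA codon, which elsewhere ends translation, is read as selenocysteine. This needs a hairpin in the 3′ untranslated region (the SECIS element), the protein SECISBP2 that binds it, and the elongation factor EEFSEC that delivers the selenocysteine tRNA. PIMT, also called TGS1 and listed as *Tgs1*, is an RNA cap methyltransferase that adds methyl groups to the cap of small nuclear and nucleolar RNAs and is reported to do the same on some selenoprotein mRNAs. In heart the selenoproteins are known mainly for the removal of peroxides and for redox reactions in the cytosol, mitochondria and endoplasmic reticulum. The question addressed here was whether the RNA levels of these genes differed between csPIMT-/- and control hearts. The cap itself was not measured.

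The selenocysteine codon is what these genes have in common and is shown first. Each line gives the coding sequence around it, with up to 24 bases on either side, from the transcripts of GENCODE M21 (GRCm38, the assembly also called mm10), 5′ to 3′. The capitals mark the TGA that encodes selenocysteine, the interval gives its position, and the exon and codon are counted in the transcript used.
Gpx1 (chr9:108339451-108339453, plus strand, exon 1 of 2, codon 47): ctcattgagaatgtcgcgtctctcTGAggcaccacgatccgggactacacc
Gpx3 (chr11:54907256-54907258, plus strand, exon 2 of 5, codon 73): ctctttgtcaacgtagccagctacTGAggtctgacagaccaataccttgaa
Gpx4 (chr10:80054737-80054739, plus strand, exon 3 of 7, codon 129): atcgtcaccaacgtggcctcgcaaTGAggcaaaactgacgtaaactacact
Txnrd1 (chr10:82896037-82896039, plus strand, exon 15 of 15, codon 612): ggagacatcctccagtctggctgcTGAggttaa
Txnrd2 (chr16:18477772-18477774, plus strand, exon 17 of 17, codon 526): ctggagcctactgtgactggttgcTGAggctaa
Sepp1 (chr15:3274848-3274850, plus strand, exon 2 of 5, codon 59): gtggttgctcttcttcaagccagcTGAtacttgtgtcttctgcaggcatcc
Sepw1 (chr7:15920464-15920466, minus strand, exon 2 of 6, codon 13): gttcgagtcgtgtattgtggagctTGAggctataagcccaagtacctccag
Selk (chr14:29973440-29973442, plus strand, exon 4 of 5, codon 92): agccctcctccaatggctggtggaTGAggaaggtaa
Selt (chr3:58585238-58585240, plus strand, exon 2 of 6, codon 49): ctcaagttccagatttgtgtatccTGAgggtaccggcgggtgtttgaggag
Sephs2 (chr7:127273731-127273733, minus strand, exon 1 of 1, codon 63): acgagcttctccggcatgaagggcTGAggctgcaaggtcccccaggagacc

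The codon lies early in the coding sequence of *Sepw1* (codon 13 of 88) and as the last codon but one or near the end in *Txnrd1* (codon 612 of 613), *Txnrd2* (codon 526 of 527) and *Selk* (codon 92 of 94). In *Sepw1* and *Selt* a cysteine codon stands 3 codons before it, the spacing of a redox pair, and in *Txnrd1* and *Txnrd2* a cysteine codon directly precedes it. *Sepp1* has 10 such codons, of which the first is shown. The other 9 lie in its last exon. The codon was upstream of the last exon junction in *Gpx1* (by 105 bases), *Gpx3* (240), *Gpx4* (342), *Sepw1* (243), *Selt* (470), *Selk* (5) and, for its first codon, *Sepp1* (357). It was in the last exon in *Txnrd1* and *Txnrd2*, and *Sephs2* has a single exon.

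*Tgs1* was examined as a check of the labels. In the controls it had a normalized count of 579.7 at 2 months and 816 at 6 months. The csPIMT-/- hearts had 160.3 and 162. Its ratio of csPIMT-/- over control was 0.276 (95% counting interval 0.227 to 0.334) at 2 months and 0.199 (0.167 to 0.236) at 6 months. Both csPIMT-/- libraries were below both controls. The same held for 35.9% of 14847 genes, and 16% of 14781 genes were more than 2-fold lower at both ages. This pattern alone is therefore a weak check of the labels. The *Tgs1* transcript has a GC content of 41.9%, and with the trend of the ratio on GC content subtracted its ratios were 0.602 and 0.495. The log2 difference over both ages was -2.09 (limma adjusted p = 0.0184), and -0.86 with that trend subtracted (limma adjusted p = 0.166). These counts cover the whole gene and not the deleted exons alone.

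Among the 10 genes, *Gpx1*, *Gpx3*, *Gpx4* and *Sepw1* were more than 2-fold higher in csPIMT-/- than in control hearts at both ages, *Selt* was more than 2-fold lower at both ages, and the other 5 were within 2-fold. Across all genes compared, 17.3% were more than 2-fold higher and 22.5% more than 2-fold lower at 2 months. At 6 months these shares were 16.9% and 24.9%. At both ages, 7.73% of 14781 genes were more than 2-fold higher and 16% more than 2-fold lower. The median ratio of the 10 genes was 1.42 at 2 months and 1.48 at 6 months, beside 0.997 and 1.002 over all genes compared. The order of the ratios followed the GC content of the transcripts, as described further on, and the values after its trend was subtracted are given beside each gene.

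**Figure D1:**
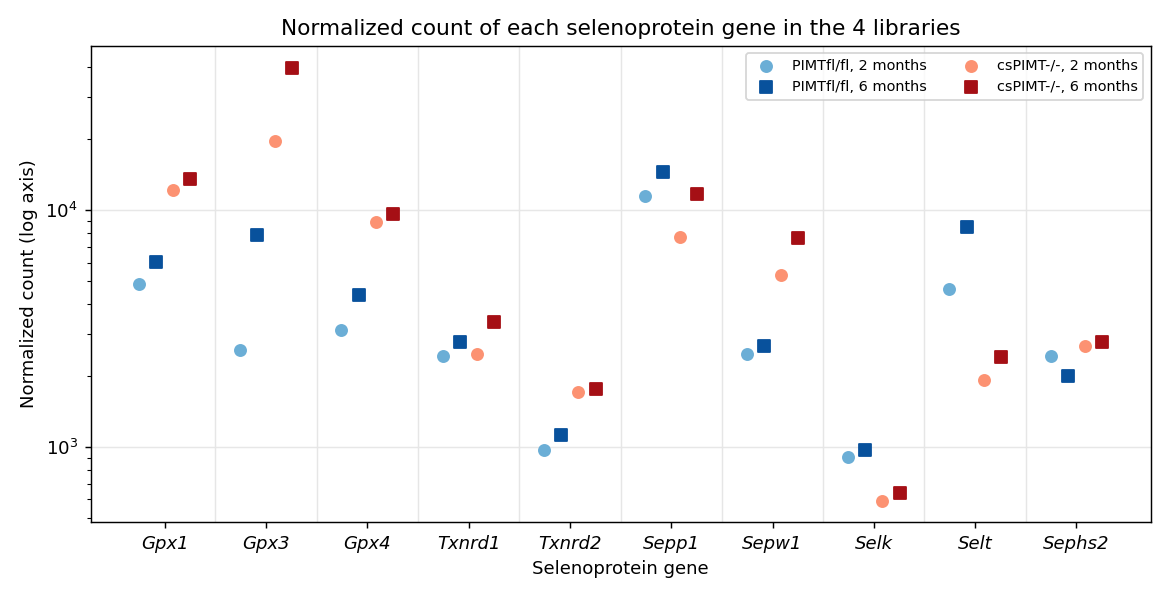
Normalized count (log axis) of the 10 selenoprotein genes in the 4 libraries, 1 point per library of 5 pooled hearts. Both csPIMT-/- points lie above both control points for *Gpx1*, *Gpx3*, *Gpx4*, *Txnrd2*, *Sepw1* and *Sephs2* and below them for *Selk* and *Selt*.

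The glutathione peroxidases reduce hydrogen peroxide or lipid peroxides at the expense of glutathione. *Gpx3* encodes the secreted form found in plasma and lies on chromosome 11 from 54902453 to 54910377. Its normalized count was 2575 in the control library of 2 months, 7809 in that of 6 months, 19603 in csPIMT-/- hearts of 2 months and 39953 in those of 6 months. It was the gene with the highest ratio of the 10 at both ages, 7.61 (95% counting interval 7.32 to 7.92) at 2 months and 5.12 (5.00 to 5.24) at 6 months. The controls themselves differed by a ratio of 3.03 between 6 and 2 months, which is the only difference past 2-fold between the control libraries among the 10 genes (9.01% of all genes were more than 2-fold higher and 4.65% more than 2-fold lower in the control of 6 months). Set against the control of the other age, the ratio of *Gpx3* was 2.51 for the csPIMT-/- library of 2 months and 15.5 for that of 6 months, so the size of the difference depended on the control, and its direction did not. With the GC trend subtracted it was 4.93 and 3.28.

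*Gpx1*, the main cytosolic glutathione peroxidase, lies on chromosome 9 from 108338903 to 108340343. It had normalized counts of 4894 and 6020.0 in the younger and older controls, and of 12191 and 13584 in csPIMT-/- hearts. The ratio was 2.49 (95% counting interval 2.41 to 2.57) at 2 months and 2.26 (2.19 to 2.32) at 6 months. The lower csPIMT-/- value was above the higher control value, and the controls differed from each other by a ratio of 1.23.

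*Gpx4*, on chromosome 10 from 80047166 to 80056439, encodes the peroxidase that acts on lipid peroxides in membranes and restrains ferroptosis. Its normalized counts were 3119 and 4368 in the controls and 8926 and 9615 in csPIMT-/- hearts. The ratio was 2.86 (2.75 to 2.98) at 2 months and 2.20 (2.13 to 2.28) at 6 months. The annotation holds a transcribed pseudogene of it, *Gpx4-ps2*, and reads that fit both places may have been dropped or split by the counting. After the GC trend was subtracted *Gpx1* had ratios of 1.56 and 1.40 and *Gpx4* of 1.72 and 1.29, so neither remained past 2-fold at either age.

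The thioredoxin reductases transfer electrons from NADPH to thioredoxin. *Txnrd1*, on chromosome 10 from 82833951 to 82897712, encodes the cytosolic enzyme. It had 2409.9 and 2769 normalized counts in the controls and 2477 and 3360.3 in csPIMT-/- hearts, and the groups overlapped. Its ratio of 1.03 (0.970 to 1.09) at 2 months was not distinguishable from 1 within counting error, and it was 1.21 (1.16 to 1.28) at 6 months. Its GC-subtracted ratios were 1.05 and 1.21. *Txnrd2*, on chromosome 16 from 18426384 to 18479073, encodes the mitochondrial enzyme. Its normalized counts were 973 and 1127 in the controls and 1698 and 1757 in csPIMT-/- hearts. The ratio was 1.75 (1.61 to 1.89) at 2 months and 1.56 (1.45 to 1.68) at 6 months, and 1.18 and 1.03 with the GC trend subtracted.

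*Sepp1* (now *Selenop*) encodes the secreted protein that carries selenium from the liver to other organs, and lies on chromosome 15 from 3268547 to 3280508. It had 11468 and 14451 normalized counts in the controls and 7714 and 11683 in csPIMT-/- hearts. The csPIMT-/- library of 6 months lay between the 2 controls, so the groups overlapped. Its ratio was 0.673 (0.653 to 0.693) at 2 months and 0.808 (0.789 to 0.828) at 6 months. With the GC trend subtracted it was above 1 at both ages, at 1.21 and 1.66. *Sepp1* shares exonic bases with a gene on the opposite strand, *Ccdc152*. The libraries were directional, but the strand setting of the counting is not given in the sources used here.

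*Sepw1* (now *Selenow*), on chromosome 7 from 15917208 to 15922402, encodes a small thioredoxin-fold protein that is abundant in muscle. Its normalized counts were 2476 and 2674 in the controls and 5329.9 and 7646 in csPIMT-/- hearts. The ratio was 2.15 (2.05 to 2.26) at 2 months and 2.86 (2.74 to 2.98) at 6 months. The controls were close to each other, with a ratio of 1.08. Against the control of the other age the ratio at 2 months was 1.99, just within 2-fold. The GC-subtracted ratios were 1.35 and 1.77.

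*Selt* (now *Selenot*), on chromosome 3 from 58576636 to 58593133, and *Selk* (now *Selenok*), on chromosome 14 from 29968308 to 29975662, encode selenoproteins of the endoplasmic reticulum membrane. *Selt* had 4646 and 8453 normalized counts in the controls and 1915 and 2388 in csPIMT-/- hearts. Both csPIMT-/- libraries were below both controls. The ratio was 0.412 (0.389 to 0.436) at 2 months and 0.282 (0.270 to 0.296) at 6 months. The controls differed by a ratio of 1.82, and against the control of 2 months the csPIMT-/- library of 6 months gave 0.514, no longer past 2-fold. The GC-subtracted ratio was 1.13 at 2 months and 0.846 at 6 months, so that at 2 months its direction was turned.

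*Selk* had 909 and 974 normalized counts in the controls and 593 and 639.8 in csPIMT-/- hearts, both below both controls. Its ratio was 0.652 (0.584 to 0.727) at 2 months and 0.657 (0.595 to 0.726) at 6 months, and with the GC trend subtracted 0.978 and 1.06. The annotation names 5 processed pseudogenes of *Selk* and 1 of *Selt*, with which their reads could be shared, so both counts are less certain. *Sephs2*, on chromosome 7 from 127271879 to 127274055, encodes selenophosphate synthetase, itself a selenoprotein. It had 2425 and 1988.5 normalized counts in the controls and 2664 and 2774 in csPIMT-/- hearts, with ratios of 1.10 (1.04 to 1.16) and 1.40 (1.32 to 1.48). After subtraction of the GC trend these were 0.8998 and 1.08.

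Levels of different genes were compared per kilobase of exon. The length used was that of all annotated exons of a gene, merged over its transcripts. A gene whose expressed transcript is shorter than this can be placed too low. In the control library of 2 months the order was *Sepp1* (4035 normalized counts per kilobase), *Gpx1* (3396), *Sepw1* (3364), *Gpx4* (1809), *Gpx3* (1420.4), *Selt* (1352), *Sephs2* (1114), *Selk* (481), *Txnrd1* (340.1) and *Txnrd2* (221). In csPIMT-/- hearts of 6 months *Gpx3* came first, with 22037 per kilobase, followed by *Sepw1* (10388), *Gpx1* (9427), *Gpx4* (5577) and *Sepp1* (4111). *Selt*, at 695 per kilobase, was below *Sephs2* (1274). With 1 library per group there is no spread by which to tell neighbours in this order apart.

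Both csPIMT-/- libraries lay above both controls for 6 of the 10 genes and below them for 2, beside 35.2% and 35.9% of the 14847 genes tested over both ages. Genotype was then tested over both ages in 1 limma model of log2(normalized count + 1), with age as a covariate. With 4 libraries only 1 residual degree of freedom is left, so the error is how far the genotype effects at the 2 ages differ, moderated over all genes, and not a spread of replicates. *Gpx3* was higher in csPIMT-/- hearts by 2.64 on the log2 scale (standard error 0.238, limma adjusted p = 0.0163). *Gpx4* was higher by 1.33 (standard error 0.213, limma adjusted p = 0.0196), *Sepw1* by 1.31 (0.217, limma adjusted p = 0.0204) and *Gpx1* by 1.25 (0.200, limma adjusted p = 0.0196). The level of *Selt* fell by 1.55 on the log2 scale (standard error 0.232, limma adjusted p = 0.0182). The same fit called 11% of all genes higher and 17.5% lower. Of the other 5 genes, *Txnrd2* had a log2 difference of 0.72 (limma adjusted p = 0.0648), *Selk* of -0.61 (limma adjusted p = 0.115), *Sepp1* of -0.44 (limma adjusted p = 0.166), *Sephs2* of 0.31 (limma adjusted p = 0.317) and *Txnrd1* of 0.16 (limma adjusted p = 0.582). Without age in the model the adjusted p of *Txnrd2* was 0.0494. The edgeR quasi-likelihood test on the recovered reads called the same 5 genes, among 11% of genes higher and 17% lower, and so did DESeq2 (15% and 20.5%).

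No gene, among the 10 or elsewhere, kept its call once the GC trend was taken out. With the trend of each library on GC content subtracted, limma called 0 of 14676 genes at an adjusted p below 0.05, with 3828 at an unadjusted p below 0.05, 4 of them among the 10 genes. *Gpx3* then differed by 2.02 on the log2 scale, with an SE of 0.233 and a limma adjusted p of 0.0954, which was the lowest adjusted p of that fit. *Gpx1*, *Gpx4* and *Sepw1* had 0.57, 0.57 and 0.63 (limma adjusted p of 0.166, 0.185 and 0.163) and *Selt* -0.034 (limma adjusted p = 0.933). A fit without the mean trend of the variance also called 0 genes, with 5965 at an unadjusted p below 0.05 and an adjusted p of 0.0654 for *Gpx3*. The deleted gene *Tgs1* was not called in either fit (limma adjusted p of 0.166 and 0.0654). Since these fits called 0 genes, the loss of a call says nothing particular about the selenoprotein genes.

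The relation to GC content is a property of the whole set of libraries. Across all genes compared, the log2 ratio of csPIMT-/- over control had a Spearman rho with the GC content of the longest transcript of 0.580 in the younger and 0.607 in the older pair of libraries. This is a description across genes of the same libraries, which are no replicates of each other. Between the 2 controls rho was -0.268. The mean GC content of transcripts, weighted by normalized count, was 50.2% and 49.6% in the controls and 52.3% and 52.3% in csPIMT-/- hearts. Among the 10 selenoprotein genes GC content ran from 39.3% in *Selt*, 43.8% in *Sepp1* and 45.7% in *Selk*, through 49.7% in *Txnrd1*, 52.1% in *Sephs2* and 55.05% in *Txnrd2*, to 56.0% in *Gpx3*, 57.2% in both *Gpx1* and *Sepw1* and 60.2% in *Gpx4*. The 3 genes with the lowest GC content were the 3 with ratios below 1 at both ages, and the 4 with the highest were the 4 more than 2-fold higher. Over these 10 genes rho was 0.903 at 2 months, 0.879 at 6 months and 0.0303 between the controls. Whether GC content itself or some other difference between the libraries sets this trend was not tested.

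**Figure D2:**
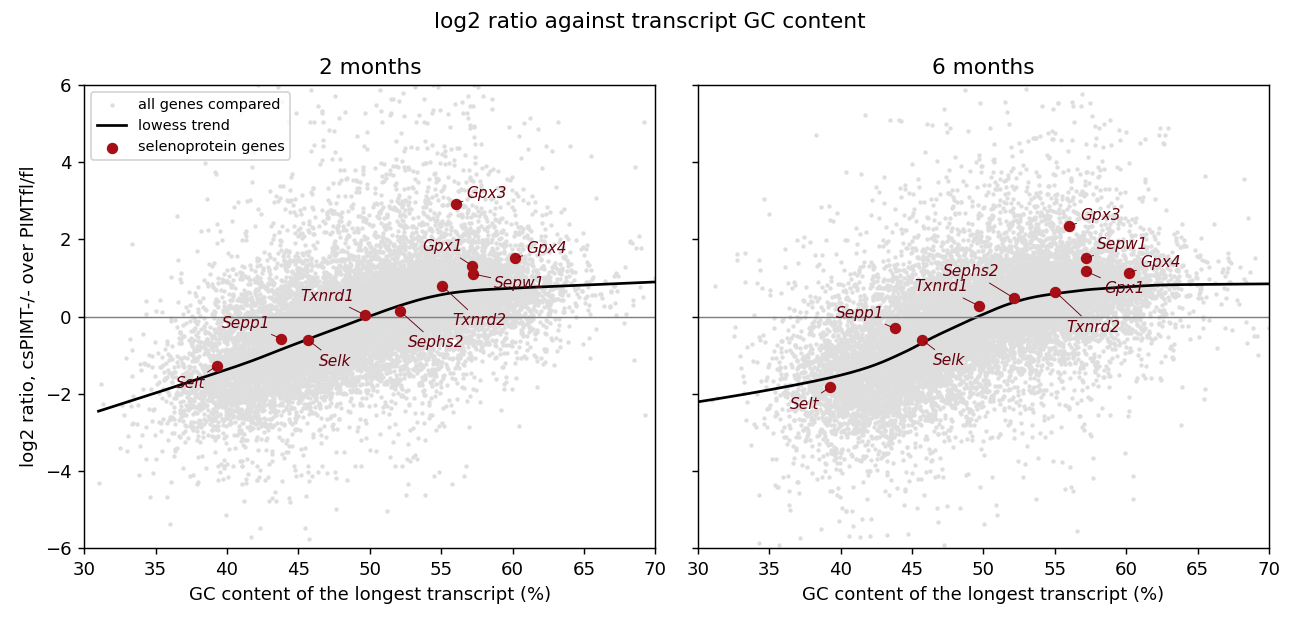
log2 ratio of csPIMT-/- over PIMTfl/fl against the GC content of the longest transcript (%) at 2 and 6 months, with all genes compared in grey (points beyond the axes are not drawn), their lowess trend as a line and the 10 selenoprotein genes in red. *Selt*, *Selk* and the genes from *Txnrd1* to *Txnrd2* lie near the line, and *Gpx3* lies above it at both ages.

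**Figure D3:**
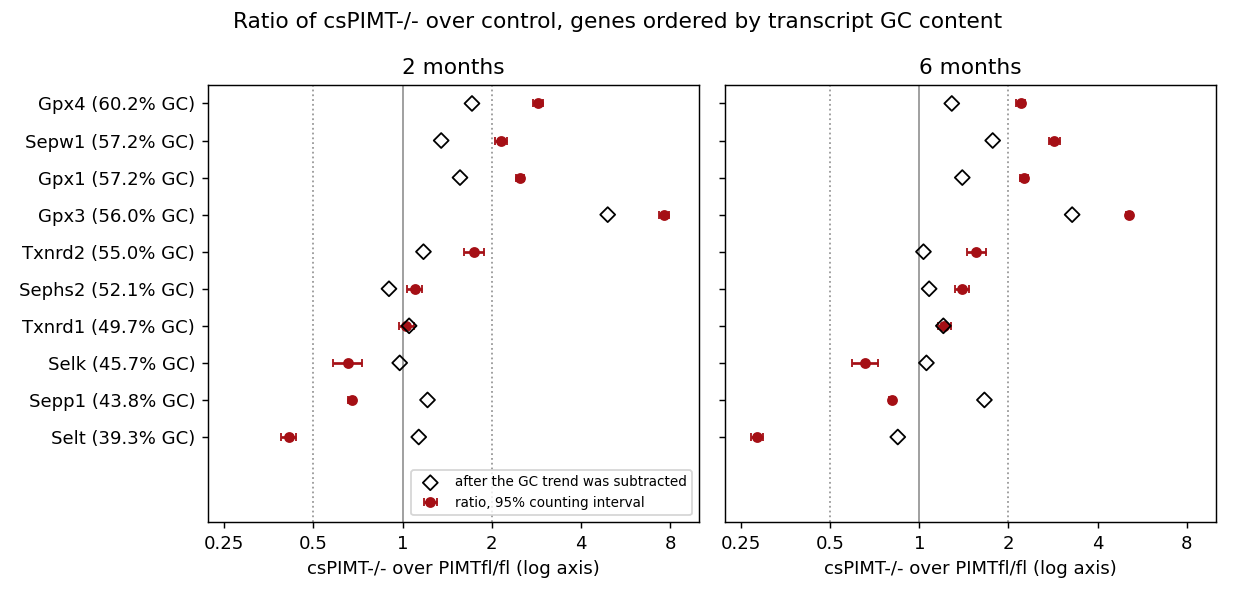
Ratio of csPIMT-/- over PIMTfl/fl (log axis) of the 10 genes, ordered by GC content, as filled circles with their 95% counting intervals and, as open diamonds, after the GC trend was subtracted. Dotted lines mark 2-fold, and *Gpx3* is the only gene past them after the subtraction, with 4.93 at 2 months and 3.28 at 6 months.

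With the GC trend subtracted, 1 of the 10 genes, *Gpx3*, was more than 2-fold higher and 0 were more than 2-fold lower at each age. In all genes compared, 14.9% were then higher and 11.5% lower at 2 months, and 14.2% and 13.2% at 6 months. The median ratio of the 10 genes was 1.195 and 1.25, beside 1.01 at both ages over all genes. Between the 2 controls *Gpx3* was again the 1 gene of the 10 past 2-fold, with a GC-subtracted ratio of 3.08 (7.23% of all genes were higher and 4.92% lower).

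Hearts hold many cell types, and in a bulk library fewer cells of a type and less RNA per cell cannot be told apart. Markers of other tissues were unequal between the pools. The cardiomyocyte markers (8 genes) summed to 3247355 and 3708671 normalized counts in the controls and 2508035 and 1815954 in csPIMT-/- hearts, none of the 8 at 0. *Ttn* had the highest count of the 8 in every library, with ratios of 0.572 and 0.291. *Ryr2* (0.608 and 0.538), *Tnnt2* (0.799 and 0.769) and *Myh6* (0.993 and 0.769) also had ratios below 1 at both ages, that of *Myh6* at 2 months being close to 1. *Tnni3* (1.49 and 1.18), *Actc1* (1.22 and 1.37) and *Myl3* (1.43 and 1.43) were above 1 at both ages. *Myl2* had 1.39 and 0.925, so the sum does not describe each marker. The 4 white fat markers summed to 10.4 in the control of 2 months (with *Lep* at 0), 2759 in that of 6 months, 12076 in csPIMT-/- hearts of 2 months and 2031 in those of 6 months. All 4 were more than 2-fold higher at 2 months and none at 6 months. The 6 lung markers summed to 1.73 and 10.6 in the controls and to 1169 and 18.7 in csPIMT-/- hearts, with 5 of them at 0 in the control of 2 months. Of the 1169, *Bpifa1* made up 979 and *Scgb1a1* 139. At 6 months 0 lung markers had the 10 reads needed for a ratio, so that difference rests on a few reads. Atrial markers (4 genes) summed to 2559.6 and 50594 in the controls and 132951 and 29128 in csPIMT-/- hearts. The 6 macrophage markers summed to 10682 and 23494 in the controls and 25804 and 34025 in csPIMT-/- hearts, with 4 of 6 more than 2-fold higher at 2 months and 1 at 6 months. Fibroblast markers (5 genes) summed to 220231 and 118649.8 in the controls and 140100 and 145112 in csPIMT-/- hearts, lower at 2 months and higher at 6 months. Endothelial markers (4 genes) summed to 48159 and 34551 in the controls and 27945 and 31931 in csPIMT-/- hearts, lower at both ages. The 3 brown fat markers summed to 1899 and 1108 in the controls and 4356 and 2618 in csPIMT-/- hearts. Their sum was higher in csPIMT-/- hearts at both ages, as were the macrophage sum and the lung sum. The white fat and atrial sums were higher at 2 months and lower at 6 months. *Cidea* made up most of the brown fat sum in each library, with ratios of 1.36 and 2.56. *Ucp1* had ratios of 204 and 0.134, so the brown fat markers differed in direction at 6 months. *Elovl3* was at 0 in the control of 6 months. Of the blood markers, *Hba-a1*, *Hba-a2* and *Hbb-b1* were listed at 0 in every library and *Alas2* ranged from 2313 to 12284. The part of these cells in the levels of the selenoprotein genes was not tested.

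Of the other 14 selenoprotein genes of the mouse, 13 were found, *Selh*, *Selo* and *Vimp* under other symbols, and *Selv* was not found. 12 of them could be compared at 2 months, with 4 more than 2-fold higher and 0 lower, and 11 at 6 months, with 2 higher and 1 lower. Their median ratio was 1.35 and 1.65, and 1.24 and 1.16 with the GC trend subtracted. Of the 4 higher at 2 months, *Dio1* had only 7 reads in the control against 14. Over all genes compared, 17.3% were more than 2-fold higher and 22.5% lower at 2 months, and 16.9% and 24.9% at 6 months. The limma fit called 11% of all genes higher and 17.5% lower. These shares also stand beside the counts of the lists below, which are small. In the limma fit *Selm*, *Selo* and *Sepn1* of 11 genes were higher and *Ept1* was lower at an adjusted p below 0.05. The GC-subtracted ratios of *Selo* were 1.49 and 1.16, those of *Sepn1* 1.15 and 0.997 and those of *Ept1* 1.13 and 0.9303. *Selm*, which encodes a thioredoxin-fold protein of the endoplasmic reticulum, was more than 2-fold higher at both ages. It had 1287 and 1671 normalized counts in the controls and 2807 and 4174 in csPIMT-/- hearts (log2 difference 1.22, limma adjusted p = 0.0215). The ratios were 2.18 (2.04 to 2.33) and 2.50 (2.36 to 2.64), and 1.36 and 1.54 with the GC trend subtracted. *Dio3*, which encodes the deiodinase that inactivates thyroid hormone, was also past 2-fold at both ages, but on few reads. At 2 months 6 reads in the control stood against 12 in csPIMT-/- hearts, a ratio of 2.85 (0.990 to 9.25) that includes 1 in its counting interval. At 6 months it was 1 read against 38, with an interval from 7.59 to 1822. Its limma adjusted p was 0.104. Over the selenoprotein genes compared, 22 at 2 months and 21 at 6 months, the Spearman rho of the log2 ratio with GC content was 0.858 and 0.806.

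The genes for the synthesis and insertion of selenocysteine were 11, all found. At 2 months 2 of 11 were more than 2-fold higher and 1 lower, and at 6 months 2 of 10 and 1. Their median ratio was 0.9499 and 1.18, and 1.32 and 1.197 with the GC trend subtracted. The 0.9499 at 2 months is the ratio of *Rpl30* itself, from 12 reads in the control against 8. It therefore does not place the list below 1, and 5 of the 11 genes had ratios above 1. In the limma fit *Lrp8* and *Sars* of 10 genes were higher and *Secisbp2l* was lower. *Sars*, which encodes the seryl-tRNA synthetase, had ratios of 1.57 and 2.16 (limma adjusted p = 0.0424), and 1.19 and 1.57 after the subtraction. *Secisbp2l*, a paralog of the SECIS-binding protein gene, had 2799 and 3212 normalized counts in the controls and 1208 and 1562 in csPIMT-/- hearts, with ratios of 0.432 (0.401 to 0.464) and 0.486 (0.458 to 0.516) and a limma adjusted p of 0.0243. With the GC trend subtracted these ratios were 0.624 and 0.745. *Secisbp2* itself had ratios of 0.558 and 0.693 (limma adjusted p = 0.0886), and 0.451 and 0.529 after the subtraction. *Eefsec* had 2.08 and 1.68 (limma adjusted p = 0.0549), and 1.32 and 1.06 after the subtraction. *Lrp8*, which encodes a receptor that takes up the product of *Sepp1*, had 38.1 and 186 normalized counts in the controls and 247 and 485 in csPIMT-/- hearts. Its ratios were 6.48 (4.65 to 9.19) and 2.61 (2.22 to 3.09), and 8.16 and 3.38 after the subtraction (log2 difference 2.02, limma adjusted p = 0.0341, and 0.0974 without age in the model). The controls of this gene differed by a ratio of 4.87. *Rpl30*, a ribosomal protein gene that every cell uses, had at most 12 reads in any library, and its listed values are not read as its expression.

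Homologues of selenoproteins that have cysteine in place of selenocysteine were 6 genes. Of the 4 compared at 2 months 2 were more than 2-fold lower and 0 higher, and of the 5 compared at 6 months 1 was lower and 1 higher, the latter *Gpx6* with 2 reads in the control against 16, a ratio of 9.46 (2.22 to 84.8). Their median ratio was 0.909 and 0.587. After subtraction of the GC trend it was 0.968 and 0.916, and 0 genes of the list were more than 2-fold lower at either age. In the limma fit *Gpx8* and *Msrb3* of 4 genes were lower. *Msrb3*, a methionine sulfoxide reductase gene, had ratios of 0.488 and 0.561 (limma adjusted p = 0.0310), and 0.740 and 0.916 after the subtraction. *Gpx8*, a glutathione peroxidase homologue of the endoplasmic reticulum, was lower at both ages, with 1124 and 1452 normalized counts in the controls and 539 and 498 in csPIMT-/- hearts (log2 difference -1.30, limma adjusted p = 0.0276). Its GC content was 44.3%, and its GC-subtracted ratios were 0.820 and 0.660. *Gpx7* went the other way, with ratios of 1.69 and 1.73, and 1.12 and 1.13 after the subtraction.

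Among 9 genes of the thioredoxin and glutathione systems, which supply the electrons that these enzymes use, 0 were more than 2-fold higher and 1 was lower at 2 months, and 2 were higher and 1 lower at 6 months. The median ratio was 1.01 and 1.32, and 1.15 and 1.26 with the GC trend subtracted. In the limma fit *Gss* and *Txnip* were higher and *Glrx2* was lower. *Gss*, which encodes glutathione synthetase, had ratios of 1.96 and 3.67 (log2 difference 1.42, limma adjusted p = 0.0301), and 2.31 and 4.31 after the subtraction. *Txnip*, the gene of a thioredoxin inhibitor, had ratios of 1.68 and 2.97 (log2 difference 1.16, limma adjusted p = 0.0424), and 1.96 and 3.45 after the subtraction. *Glrx2*, which encodes mitochondrial glutaredoxin, was lower at both ages, with 711 and 784 normalized counts in the controls and 342 and 253 in csPIMT-/- hearts (log2 difference -1.34, limma adjusted p = 0.0334). Its GC-subtracted ratios were 0.886 and 0.678.

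**Figure D4:**
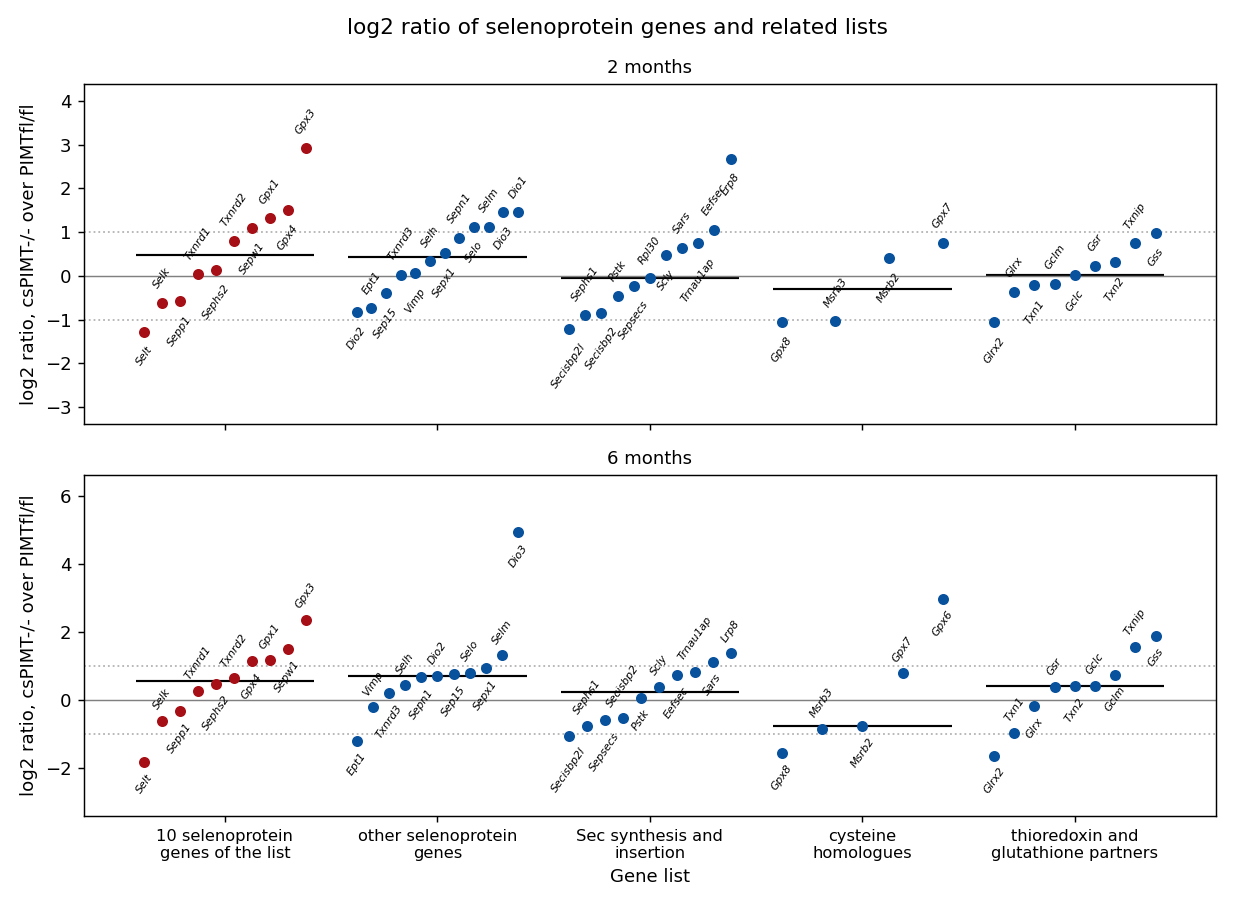
log2 ratio of csPIMT-/- over PIMTfl/fl at 2 and 6 months, 1 point per gene, for the 10 selenoprotein genes and the 4 related lists, with each list's median as a bar and dotted lines at 2-fold. The medians of the selenoprotein lists lie above 0 at both ages, and that of the cysteine homologues, of 4 and 5 genes, lies below 0. The GC trend is not subtracted here. Median GC content was 53.6% in the 10 genes, 51.5% in the other selenoprotein genes and 47.2% in the homologues. With the trend subtracted the homologues had median ratios of 0.968 and 0.916.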

How the data were processed

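RNA of 5 hearts per group was pooled, polyadenylated RNA was made into directional TruSeq libraries and single-end reads were sequenced. The authors trimmed adapters, removed poor and ribosomal RNA reads, aligned to mm10 with STAR, counted reads per gene with htseq-count (HTSeq 0.6.1p1 per the processing notes) and a UCSC annotation, and normalized with DESeq2. The deposited values are this signal, reads divided by a size factor, 1 per gene symbol. The column of the csPIMT-/- library of 6 months is headed as read counts but is normalized like the others. All values (100%) were whole multiples of 1 read within 1e-06 reads, which gave 29823073 to 40705783 reads per library.

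Ratios are quotients of deposited values, so that all 4 libraries share 1 scale. Genes needed at least 10 reads in 1 of the 2 libraries, and log2 ratios used 0.5 reads as pseudocount. GC content and length came from GENCODE M21 (GRCm38) by symbol or RefSeq synonym (98.8% of genes), and the trend on GC content was fitted by lowess, span 0.3 (statsmodels 0.14.6, Python 3.11.15). limma 3.58.1 was used on log2(value + 1) with genotype and age, a mean trend, and genes with at least 10 in 2 libraries. Adjusted p-values are by the Benjamini-Hochberg method across all genes tested. edgeR 4.0.16 (quasi-likelihood) and DESeq2 1.42.0 were run on the recovered reads as alternatives, and edgeR called 4158 genes. The fits and intervals were tested on simulated data. The 10 genes and the related lists were chosen by name with earlier results of these data known. Genes of the related lists are named where they were past 2-fold in the same direction at both ages, at most 4 per list. *Rpl30*, *Gpx6*, *Gpx7*, *Dio1*, *Selo*, *Sepn1*, *Ept1*, *Sars*, *Secisbp2*, *Eefsec*, *Msrb3*, *Gss* and *Txnip* were named after their values were seen. No sequencing batch or date is given for a comparison within batches. Some annotated gene overlaps are not reported here.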

Additional observations from a re-analysis of the deposited data

Results flagged for a closer look

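Genes of the lists were flagged where the csPIMT-/- library was above its control at one age and below it at the other, with both counting intervals away from 1. None of the 10 selenoprotein genes was among them. *Sep15*, which encodes a selenoprotein of the endoplasmic reticulum, had a ratio of 0.764 at 2 months and 1.72 at 6 months, but 1.35 and 3.44, both above 1, with the GC trend subtracted. *Dio2*, the gene of the deiodinase that activates thyroid hormone, had 0.564 and 1.65, and 1.07 and 3.56 after the subtraction, again both above 1. *Msrb2*, which encodes a mitochondrial methionine sulfoxide reductase without selenocysteine, went the other way, with 1.33 and 0.587, and 1.22 and 0.513 after the subtraction, so its opposite directions remained. With 1 library per group these differences between the ages were not tested.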

How the results depend on the processing

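With the GC trend subtracted, the count of the 10 genes more than 2-fold higher went from 4 to 1 and of those lower from 1 to 0 at both ages. All genes more than 2-fold lower went from 3405 to 1722 at 2 months and from 3794 to 1982 at 6 months. All genes more than 2-fold higher changed less, from 2616 to 2233 at 2 months and from 2579 to 2140 at 6 months. The ratio of *Selt* at 2 months then turned to 1.13, and the limma log2 difference of *Sepp1* turned to 0.52, of *Selk* to 0.034 and of *Sephs2* to -0.0097. In the limma fit both this subtraction and leaving out the mean trend of the variance gave 0 higher and 0 lower genes among the 10 and among all genes, in place of 4 and 1 and of 1637 and 2595. The other 8 alternatives of that fit kept *Gpx1*, *Gpx3*, *Gpx4*, *Sepw1* and *Selt* past the threshold. Over all 10 alternatives the adjusted p of *Gpx3* ran from 3.67e-15 to 0.0954 and that of *Selt* from 1.58e-05 to 0.933. Against the control of the other age, 0 of the 10 genes were more than 2-fold lower at 6 months. A minimum of 100 reads left 1724 of all genes more than 2-fold higher at 2 months. Between the controls, 703 genes lower and 1364 higher became 259 and 691 with that minimum, and 1543 and 2543 with no minimum. No paired analysis was possible because the groups share fewer than 2 replicate numbers, so that no replicate block could be fitted. The limma model with age does compare the genotypes within each age. With 1 library per group no replicate could be left out. Depth did not limit the values of the 10 genes, whose counting intervals are narrow, but the variation between mice and pools is unknown.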
